A study of Rattus norvegicus with 6 samples.

Results

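The 6 genes Bnip3, Bnip3l, Fundc1, Fkbp8, Phb2 and Higd1a encode receptors for the removal of mitochondria by autophagy, or a mitochondrial protein induced by low oxygen. They were taken by symbol from 24360 gene rows, and all 6 passed the filter on low counts, which 11551 rows passed in all. RNA had been sequenced from H9c2, a myoblast line derived from embryonic rat heart, whose samples are all labelled WT and embryonic cardiomyocyte. In the Ctrl group (treatment NC, 3 samples) and the Rb2 group (ginsenoside Rb2, a saponin of ginseng, 3 samples) the protocol text is the same. It gives Rb2 for 48 h, then 4 to 6 h without oxygen or glucose and 12 h after both were restored, and it does not say whether the Ctrl samples went through that removal. Nothing says that replicates were separate cultures, so the spread between them may be technical.

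The genes were chosen by their role and by the measured Rb2 against Ctrl fold changes of these same samples, in which Bnip3l and Higd1a had opposite directions. Levels, fold changes and adjusted p-values of the 6 genes are therefore given as a description and support nothing further. Levels are CPM, each gene's counts scaled to a common library total, adjusted by TMM, a factor per library that evens out composition. Each log2 fold change sets Rb2 over Ctrl and carries the standard error (SE) of the edgeR fit, and a gene is called when its edgeR adjusted p is under 0.05.

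Mitophagy begins when a protein on the mitochondrial surface binds ATG8 proteins of the forming autophagosome through a short LC3-interacting region. BNIP3 and its paralog BNIP3L (also NIX) sit in the outer membrane, belong to the BCL2-related proteins, and are known as genes induced by low oxygen. FUNDC1, switched by phosphorylation, and FKBP8, a peptidyl-prolyl isomerase that also binds BCL2, are outer-membrane receptors as well. PHB2 builds the prohibitin scaffold of the inner membrane and acts as a receptor once the outer membrane has broken. HIGD1A is an inner-membrane protein that binds cytochrome c oxidase (complex IV) and is no receptor. In heart muscle, loss of oxygen and its return are classic settings for both kinds of protein.

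The stretches of 250 bases before the transcription start are shown for Bnip3 and Higd1a, because both are known as low-oxygen genes while their levels were ordered differently across the samples. They come from RefSeq (build GRCr8), whose promoter table matched 4 of the 6 genes, all but Bnip3l and Fundc1. Capitals mark ACGTG or GCGTG on either strand, the core letters bound by hypoxia-inducible factor (HIF); overlapping matches run together. Bnip3 is at chr1:203154963-203155212 and Higd1a at chr8:130400889-130401138, both on the minus strand, written 5′ to 3′ of the gene.
Bnip3: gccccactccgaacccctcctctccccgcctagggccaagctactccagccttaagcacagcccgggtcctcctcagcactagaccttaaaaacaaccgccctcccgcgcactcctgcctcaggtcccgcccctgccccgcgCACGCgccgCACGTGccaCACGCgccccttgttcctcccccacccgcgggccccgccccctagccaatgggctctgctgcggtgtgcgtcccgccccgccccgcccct
Higd1a: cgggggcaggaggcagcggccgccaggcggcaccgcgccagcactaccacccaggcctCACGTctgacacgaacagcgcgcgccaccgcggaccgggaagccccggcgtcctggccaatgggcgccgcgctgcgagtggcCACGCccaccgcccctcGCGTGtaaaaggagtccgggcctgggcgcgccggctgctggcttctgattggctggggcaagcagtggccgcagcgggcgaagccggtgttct

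The Bnip3 stretch held ACGTG on both strands of one overlapping site, at bases 99 to 94 before the start, with GCGTG at bases 108 to 104 and 90 to 86. The Higd1a stretch held ACGTG at bases 192 to 188 and GCGTG at bases 110 to 106 and 93 to 89. Fkbp8 held 1 ACGTG and 3 GCGTG, and Phb2 held 1 ACGTG and no GCGTG. Either pentamer was present in 37.9% of 27456 RefSeq promoters and in 59.4% of the 6567 promoters matched to genes tested here, so a match is common. For ACGTG alone the shares were 16.9% and 24.2%. These are matches of letters only.

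Total counts ran from 5193077 in Rb2 replicate 3 to 8793390 in Ctrl replicate 1. Averaged over counts, transcript models were 1191 ± 31.8 bases long in the Ctrl samples and 1250 ± 5.76 bases long with Rb2 (SD, n = 3 each). Among known genes tested, the median log2 fold change was -0.14 in 433 genes of up to 1000 bases and 0.08 in 1811 genes over 4000 bases. It was -0.0012 in the 2268 genes of 1000 to 2000 bases, the class of Higd1a. In the class of Bnip3l, 3000 to 4000 bases, it was 0.07. Bnip3l was the longest of the 6 genes at 3352 bases and Higd1a the shortest at 1524 bases, so values with an offset for length are given beside theirs; the part of length in their differences was not tested further. Of 10 cardiac markers 8 had a row, and Actc1 was at 0 in every sample while Myh7 and Actn2, also genes of the contractile apparatus, each had 1 count in all. Myh6, of the same apparatus, had 21 counts in the controls and 26 with Rb2, and Tnni3 had 2 and 0. The cardiac transcription factor genes Gata4 (6.48 ± 0.48 and 6.93 ± 1.24 CPM) and Nkx2-5 (2.38 ± 2.90 and 4.66 ± 3.47 CPM) were detected, so markers of the label were partly present. Nkx2-5 had 55 counts in the controls and 78 with Rb2, and its SD in the controls was above its mean. Tnnt2 carried most of the signal, with 52.9 ± 7.41 CPM in the controls and 45.3 ± 3.82 CPM after Rb2. The summed level of these 8 genes was 56.1 to 74.3 CPM in Ctrl and 54.6 to 63.8 CPM in Rb2. Skeletal muscle markers summed to 36.5 to 47.5 CPM and 42.7 to 48.0 CPM over 8 genes. Epithelial and leukocyte markers summed to at most 0.699 CPM in any library over 6 genes, with 4 to 6 of them at 0. The endothelial markers listed had no row, so nothing is said of them. None of the 3 cardiac and 4 skeletal markers tested passed; Myod1, which sets the skeletal lineage, had 12.4 ± 0.49 and 15.8 ± 3.82 CPM.

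Bnip3l (ENSRNOG00000009820), the receptor known from red cell maturation, was higher in Rb2. Its level was 27.5, 29.3 and 31.1 CPM in Ctrl replicates 1 to 3 and 46.5, 44.4 and 46.4 CPM in Rb2 replicates 1 to 3, from counts of 162 to 261. Every Rb2 sample lay above every Ctrl sample, and the gap was far wider than the spread within either group. The means were 29.3 ± 1.78 and 45.7 ± 1.18 CPM (SD, n = 3 each), a log2 fold change of 0.64 (SE 0.12, 95% interval 0.37 to 0.92, edgeR adjusted p = 0.0365). With the length offset the log2 fold change was 0.50 and the gene was no longer called (edgeR adjusted p = 0.0639).

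Higd1a (ENSRNOG00000019428), the inner-membrane partner of complex IV, went the other way. Its level was 489, 488 and 414 CPM in the controls and 343, 327 and 326 CPM in Rb2, from counts of 1770 to 4026. All Rb2 samples lay below all Ctrl samples, with Ctrl replicate 3 the nearest to them. The means were 463 ± 42.7 and 332 ± 9.66 CPM (SD, n = 3 each), a log2 fold change of -0.48 (SE 0.092, 95% interval -0.69 to -0.28, edgeR adjusted p = 0.0364). With the length offset it was -0.53 (edgeR adjusted p = 0.0395), so the offset narrowed the difference of Bnip3l and widened that of Higd1a.

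**Figure D1:**
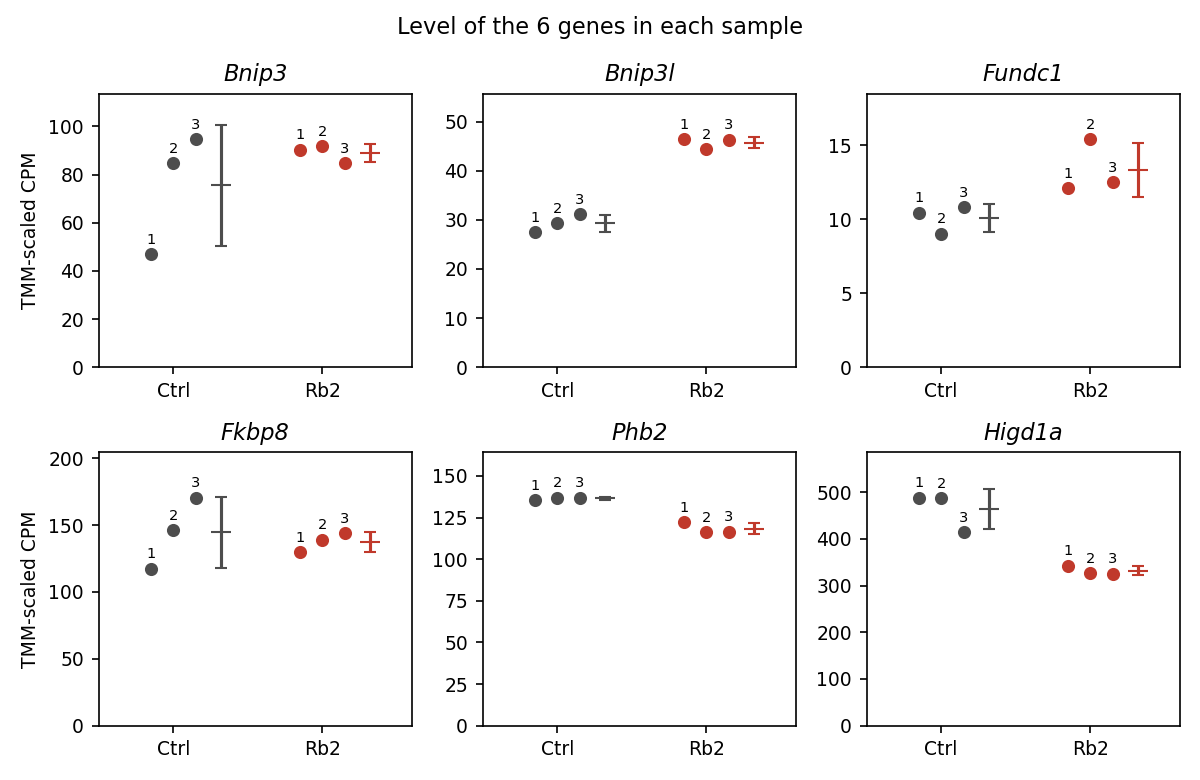
Each panel plots 1 gene's TMM-scaled CPM (vertical axis, from 0) in the 3 Ctrl samples (grey) and 3 Rb2 samples (red), with replicate numbers above the points and the mean ± SD beside them. Bnip3l in Rb2 sits at 44.4 to 46.5 CPM, above all Ctrl samples; Higd1a in Rb2 sits at 326 to 343 CPM, below all of them; Bnip3 in Ctrl replicate 1 is at 47.0 CPM, apart from the other samples.

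Bnip3 (ENSRNOG00000017243), the closest relative of Bnip3l, followed neither gene. It was at 47.0, 84.8 and 94.7 CPM in Ctrl and at 90.2, 91.9 and 84.8 CPM in Rb2. Ctrl replicate 1 stood alone at the low end, while Ctrl replicates 2 and 3 lay near the lower and above the upper end of the Rb2 range. The coefficient of variation in Ctrl was 33.4%, where counting error alone at the lowest count (387) would give 5.08%. The log2 fold change was 0.24 (SE 0.23, 95% interval -0.28 to 0.77, edgeR adjusted p = 0.596). Without Ctrl replicate 1 it was 0.0043 (edgeR adjusted p = 0.984), so the difference in means rests on that library.

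Fundc1 (ENSRNOG00000003470), the receptor switched by phosphorylation, was the lowest of the 6 and the one most limited by counting. Its counts were 86, 50 and 62 in Ctrl and 68, 89 and 68 in Rb2, or 10.4, 9.04 and 10.8 CPM against 12.1, 15.4 and 12.5 CPM. The groups did not overlap, but their nearest samples were 10.8 and 12.1 CPM. Counting error is 14.1% at 50 counts, the lowest in Ctrl, above the coefficient of variation of 9.34% in Ctrl. At 89 counts, the highest in Rb2, it is 10.6%, below the coefficient of variation of 13.6% in Rb2. The log2 fold change was 0.40 (SE 0.19, 95% interval -0.01 to 0.81, edgeR adjusted p = 0.266).

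Phb2 (ENSRNOG00000012999), the inner-membrane receptor, was steady within groups and slightly lower in Rb2. It was at 135.4, 137.0 and 137.0 CPM in Ctrl and at 122, 116 and 117 CPM in Rb2, with no overlap. The log2 fold change was -0.21 (SE 0.088, 95% interval -0.40 to -0.0081), and the gene did not pass (edgeR adjusted p = 0.235). With library size as the only scaling it was -0.09, and that scaling moved the median of all genes from -0.02 to 0.10. Relative to that median, the difference was about as large under both scalings.

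Fkbp8 (ENSRNOG00000058359), the isomerase of the outer membrane, did not differ in a set direction. It was at 117, 146 and 171 CPM in Ctrl and at 130, 139 and 144 CPM in Rb2, all Rb2 values lying inside the Ctrl range. The log2 fold change was -0.07 (SE 0.13, 95% interval -0.37 to 0.23, edgeR adjusted p = 0.814), and its sign turned with library size only (0.04) and without Ctrl replicate 3 (0.08). As in Bnip3, Ctrl replicate 1 was the lowest sample and Ctrl replicate 3 the highest.

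Thus 1 gene of the 6 was called higher and 1 called lower, where 2.70% of the 11551 genes tested were called (1.90% higher, 0.805% lower). Groups did not overlap in 4 of the 6, against 27.2% of all genes tested. The choice of the genes used these values, so nothing is read from the comparison of the shares. The calls of Bnip3l and Higd1a also depended on single libraries. Both were kept without Ctrl replicate 1 or 3. Both were lost without Ctrl replicate 2 (edgeR adjusted p = 0.146 and 0.161), Rb2 replicate 1 (0.13 and 0.109), Rb2 replicate 2 (0.189 and 0.199) or Rb2 replicate 3 (0.17 and 0.171), while the fold changes stayed between 0.62 and 0.70 and between -0.54 and -0.42. The coefficient of variation was lower in Rb2 than in Ctrl in 4 of the 6 genes, and in 68.9% of all genes tested.

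**Figure D2:**
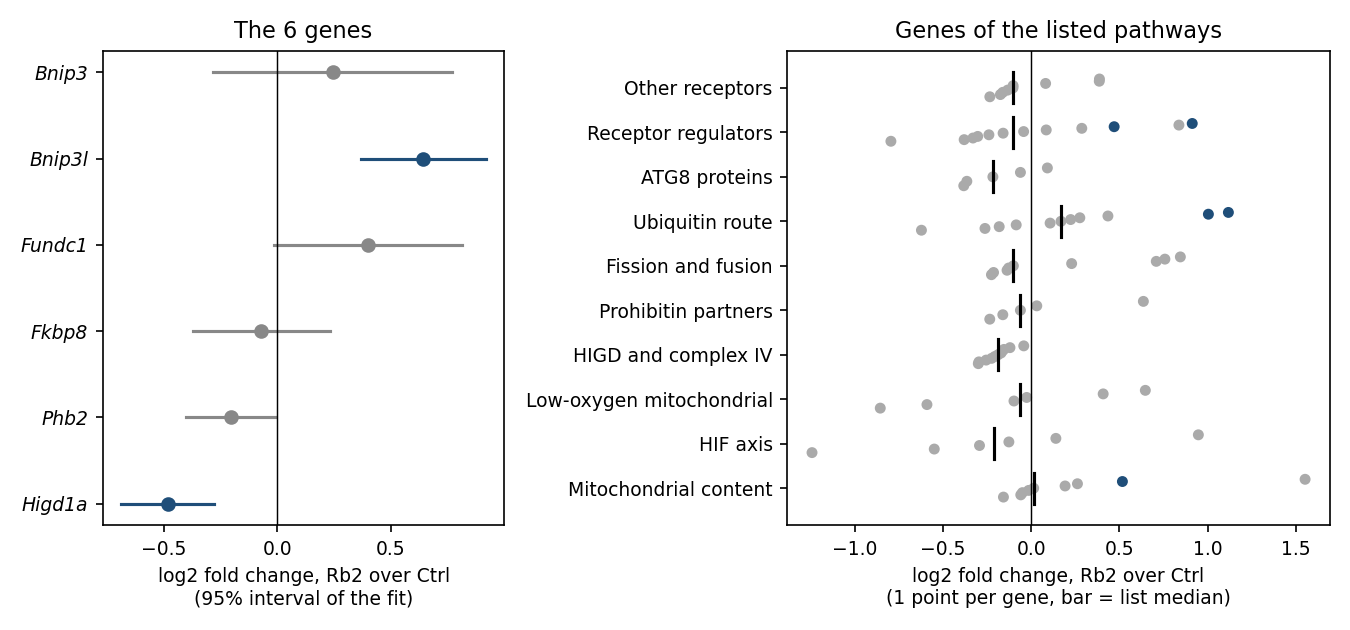
The left panel plots the log2 fold change (horizontal axis, Rb2 over Ctrl) of the 6 genes with the 95% interval of the edgeR fit; the right panel plots each tested gene of 10 pathway lists, with a bar at the list median. Blue marks an edgeR adjusted p under 0.05 and grey the rest; Bnip3l at 0.64 and Higd1a at -0.48 are the blue points on the left, and 5 genes are blue on the right, all above 0.

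A ratio of 2 genes within a library does not depend on how libraries are scaled. The opposite directions of Bnip3l and Higd1a were known when they were chosen, so the separation of their ratio is a description only. For every 100 Higd1a counts there were 5.64, 6.00 and 7.51 Bnip3l counts in Ctrl and 13.5, 13.6 and 14.2 in Rb2. The lowest Rb2 ratio was well above the highest Ctrl ratio, and Ctrl replicate 3 was again the control nearest to the Rb2 samples. On the log2 scale the ratio averaged -3.98 ± 0.22 over the controls and -2.86 ± 0.04 over the Rb2 samples (SD, n = 3 each), a difference of 1.12 or 2.18-fold. It stayed between 1.04 and 1.24 whichever sample was left out. The ratio of Bnip3l to Bnip3 showed no such separation: 58.7, 34.5 and 32.8 Bnip3l counts per 100 Bnip3 counts in Ctrl, and 51.5, 48.3 and 54.7 in Rb2. Ctrl replicate 1 exceeded every Rb2 sample there, and the other Ctrl samples lay below all of them. Bnip3 per 100 Higd1a counts was 9.61, 17.4 and 22.9 in Ctrl and 26.3, 28.1 and 26.0 in Rb2, with no overlap.

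**Figure D3:**
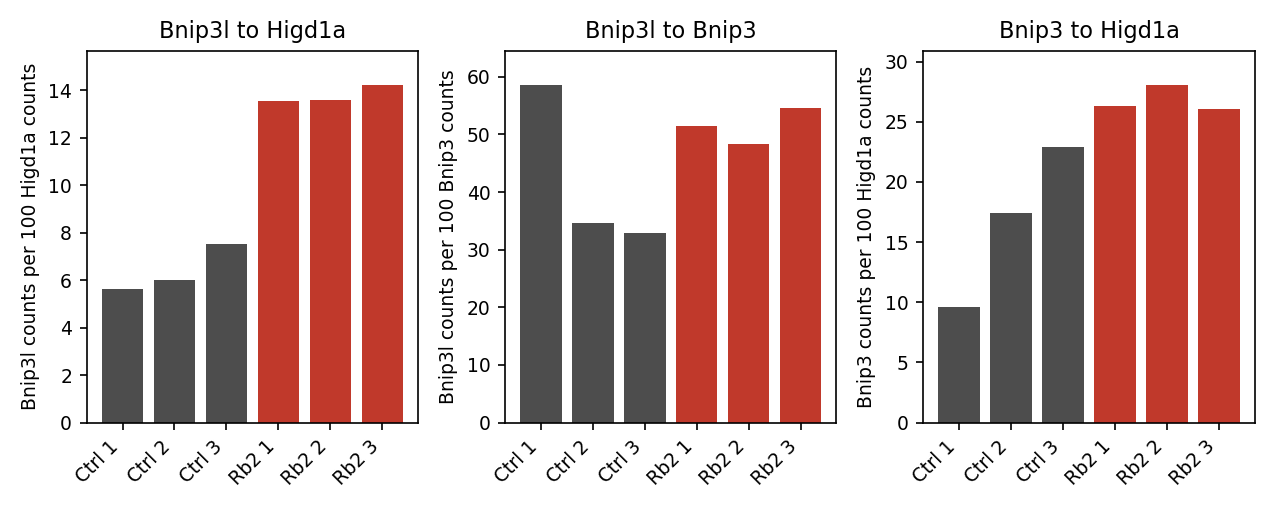
Bars give the counts of 1 gene per 100 counts of another (vertical axes, from 0) in each Ctrl (grey) and Rb2 (red) sample. The ratio of Bnip3l to Higd1a is 5.64 to 7.51 in Ctrl and 13.5 to 14.2 in Rb2, whereas the ratio of Bnip3l to Bnip3 is highest in Ctrl replicate 1, at 58.7.

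Per kilobase of gene length, on the TMM-scaled CPM scale, the order of levels was the same in both groups. Higd1a was the highest, at 304 ± 28 in Ctrl and 218 ± 6.34 in Rb2. Fkbp8 followed at 76.6 ± 14.1 and 72.9 ± 3.91, then Phb2 at 71.2 ± 0.47 and 61.7 ± 1.70. Bnip3 was at 46.6 ± 15.6 and 55.0 ± 2.28, Bnip3l at 8.74 ± 0.53 and 13.6 ± 0.35, and Fundc1 at 5.02 ± 0.47 and 6.63 ± 0.90 (SD, n = 3 each). In Ctrl the sample ranges of Fkbp8 and Phb2 overlapped; all other neighbours in the order were separate in both groups. The receptor that was higher in Rb2 was thus still well below Bnip3 in every sample.

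At the transcript level, nearly all counts of Bnip3, Bnip3l, Higd1a and Fundc1 came from 1 annotated transcript each. That of Bnip3l, ENSRNOT00000014798, held 98.4% ± 0.27 of the gene's counts in Ctrl and 97.1% ± 0.59 in Rb2. A shorter unannotated model of 1210 bases took the rest, with 3 counts in each Ctrl sample and 7, 9 and 6 in the Rb2 samples, too few to pass the filter. The annotated Bnip3l transcript had a log2 fold change of 0.62 (SE 0.11) and the only Higd1a transcript one of -0.49 (SE 0.092), both with edgeR adjusted p = 0.147. No transcript passed among the 16679 tested with edgeR (0%), although 2304 had an unadjusted p under 0.05. DESeq2 called 348 transcripts, and the 2 among the 6 genes were those of Bnip3l (adjusted p = 0.00801) and Higd1a (adjusted p = 0.000625).

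Phb2 and Fkbp8 were counted mainly on unannotated models. In Phb2 a model of 1355 bases held 96.7% ± 0.76 of counts in Ctrl and 97.3% ± 0.57 in Rb2. A second model of 1764 bases held 2.38% ± 0.30 and 1.36% ± 0.35 (SD, n = 3 each), from 29, 19 and 16 counts in Ctrl and 9, 7 and 11 in Rb2. In Fkbp8 the main model held 71.2% ± 3.18 and 76.0% ± 5.79. Its models of 1659, 1639 and 1718 bases were uneven between samples within a group. The first had 169, 0 and 0 counts in Ctrl and 120, 48 and 0 in Rb2, and the second 0, 92 and 127 against 0, 0 and 115. These 2 never had counts in the same sample. The third had 0, 82 and 87 counts in Ctrl and 0, 12 and 57 in Rb2, mostly beside the second. The 3 models together held 17.5% to 21.9% of Fkbp8 counts in Ctrl and 7.47% to 22.0% in Rb2. Shares of models this alike in length depend on how reads were assigned, which is not given in the sources used here. Usage of transcripts could be tested in Fkbp8 and Phb2 alone of the 6, and neither was called (diffSpliceDGE of edgeR, unadjusted p = 0.969 and 0.312, adjusted p = 1.00 for both), where 0.417% of 3361 genes were.

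Genes of the proteins that switch, bind or degrade the receptors were compared by RNA level. Their lists were picked for known roles, with earlier results of these data known. Here and below, nothing is therefore read from the share of a list set beside that of all genes. Values are the mean ± SD of 3 samples in Ctrl and then in Rb2. Of 12 tested regulators of BNIP3, NIX or FUNDC1, 2 rose and none fell, where 1.90% of all genes tested rose and 0.805% fell. The list median was -0.10 and that of all genes tested -0.02. Cul1, a scaffold of SCF ubiquitin ligases, went from 11.1 ± 0.83 to 20.9 ± 2.56 CPM (log2 fold change 0.91, SE 0.17, edgeR adjusted p = 0.0356). Skp1, an adaptor of the same ligases, went from 275 ± 31.5 to 381 ± 9.18 CPM (log2 fold change 0.47, SE 0.099, edgeR adjusted p = 0.0448). Skp1 missed the threshold with upper-quartile factors and among known genes only (edgeR adjusted p = 0.0566 and 0.0558). Named after their values were seen, Rbx1, the RING subunit of these ligases, had a log2 fold change of -0.16 and Fbxl4, a receptor-binding subunit, one of 0.84, and neither passed (edgeR adjusted p = 0.344 and 0.186). In the list of 5 genes of ATG8 proteins, the partners that all these receptors bind, none passed and the median was -0.22. Gabarap, with the most CPM of the list, was at 816 ± 10.8 and 702 ± 11.1 CPM (log2 fold change -0.22, edgeR adjusted p = 0.133). It was called lower without Ctrl replicate 1 (-0.19, edgeR adjusted p = 0.0489), as were 291 of all genes.

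In the ubiquitin route, where PINK1 and Parkin mark mitochondria and adaptors bind the mark, 2 of 11 tested genes rose and none fell (median 0.17), against the same 1.90% and 0.805% of all genes. Tax1bp1, an adaptor, went from 16.6 ± 3.63 to 33.1 ± 2.38 CPM (log2 fold change 1.00, SE 0.18, edgeR adjusted p = 0.0318). Usp15, a deubiquitinase that opposes Parkin, went from 4.50 ± 1.19 to 9.67 ± 1.09 CPM (log2 fold change 1.12, SE 0.25, edgeR adjusted p = 0.0480). It missed the threshold with the length offset (0.95, edgeR adjusted p = 0.0865), RLE factors (0.0506), upper-quartile factors (0.0555), a filter at 1 CPM (0.0519) and known genes only (0.0590). Cul1, Skp1, Tax1bp1 and Usp15 all missed the threshold without Ctrl replicate 2 and without any 1 Rb2 replicate. Without Ctrl replicate 1, 1 gene of the regulators and 1 of the ubiquitin route were also called lower, as were 291 of all genes.

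None of 9 other receptors and adaptors passed (median -0.10), nor did any of 9 genes of fission and fusion (-0.10) or 5 prohibitin partners (-0.06). A fit without Ctrl replicate 3 called 1 gene of fission and fusion higher, with 433 of all genes. Phb, the partner of Phb2 in the prohibitin ring, was at 332 ± 21.2 and 297 ± 6.02 CPM (log2 fold change -0.16, SE 0.085, edgeR adjusted p = 0.323), a difference of the same sign as that of Phb2. Fis1, an outer-membrane protein of fission, was at 396 ± 27.4 and 342 ± 12.8 CPM (-0.21, edgeR adjusted p = 0.209). Of 9 genes used as markers of mitochondrial content, only the matrix chaperone gene Hspd1 passed, from 367 ± 31.1 to 525 ± 47.5 CPM (log2 fold change 0.52, edgeR adjusted p = 0.0368). It missed the threshold with the length offset (0.40, edgeR adjusted p = 0.0635), upper-quartile factors (0.0515) and known genes only (0.0519), without Ctrl replicate 2 and without any 1 Rb2 replicate. The median of that list was 0.01.

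The tested genes of complex IV and the only other HIGD family gene tested lay on the same side as Higd1a, without passing. All 11 tested had a log2 fold change below 0, from -0.30 to -0.04 with a median of -0.19. With library size only, 10 of 11 were below 0 with a median of -0.07, and with the length offset 6 of 11 were, with a median of -0.02. Cox8a, a small subunit of complex IV with the most CPM of the list, was at 3651 ± 428 and 3206 ± 61.4 CPM (log2 fold change -0.19, edgeR adjusted p = 0.289; 0.03 with the length offset). Without Ctrl replicate 3, 3 of the 11 were called lower, as were 211 of all genes; without Ctrl replicate 1, 2 were, with 291 of all genes. Higd1a itself differed by -0.48, beyond the lowest of these 11.

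Of 10 other genes listed for the response of mitochondria to low oxygen, 6 were tested and none passed (median -0.06). Ghitm, an inner-membrane protein, was at 257 ± 43.7 and 240 ± 16.2 CPM (log2 fold change -0.10, edgeR adjusted p = 0.719), and its sign turned with library size only (0.01). Of 6 tested genes of the HIF axis none passed (median -0.21). Egln2, a HIF prolyl hydroxylase, was at 20.05 ± 2.50 and 18.4 ± 2.71 CPM (-0.13, edgeR adjusted p = 0.734). Chosen after their values were seen, Hif1a had a log2 fold change of 0.95 and Egln1, the main HIF prolyl hydroxylase, one of -1.24 (edgeR adjusted p = 0.0777 and 0.0731). Without Ctrl replicate 3, 1 gene of this list was called higher and 1 lower, with 433 and 211 of all genes. DESeq2 and the fit with no filter each called 1 of the list lower, and the deposited CPM plus 1 gave 1 higher. None of 3 tested BCL2 family partners of the receptors passed, among which Bax had the most CPM (-0.26, edgeR adjusted p = 0.140).

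Across the 6 samples, the genes whose log2 CPM ran most like a member's were ranked among 6544 others that had a symbol and averaged 5 CPM or more. For Bnip3l they were Aqr, Cript, Sf3b6, Sec62 and Hnrnpr, with Pearson's r of 0.998 to 0.995. For Higd1a they were Cox4i1, Med29, Gstp1, Rpl6 and Ndufs7 (0.997 to 0.994). For Bnip3 they were Tubb2a, Tmbim1, Chp1, App and Scpep1 (0.999 to 0.996). Ctrl replicate 1 was the lowest sample in Bnip3, in Bnip3l and in the 5 genes most like each of them. The 6 points share their libraries, and 7.26%, 4.80% and 10.1% of the ranked genes had r over 0.9 with Bnip3l, Higd1a and Bnip3. Between members, r was -0.97 for Bnip3l with Higd1a, 0.93 for Phb2 with Higd1a, 0.79 for Fundc1 with Bnip3l, and 0.55 for Bnip3 with Bnip3l (n = 6 samples, as a description). Group means were not removed, so each r also holds the difference between groups, by which the members were partly chosen. The 5 genes most like Bnip3l had log2 fold changes of 0.50 to 0.89. Those most like Higd1a had -0.35 to -0.24, and those most like Bnip3 had 0.09 to 0.23.

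**Figure D4:**
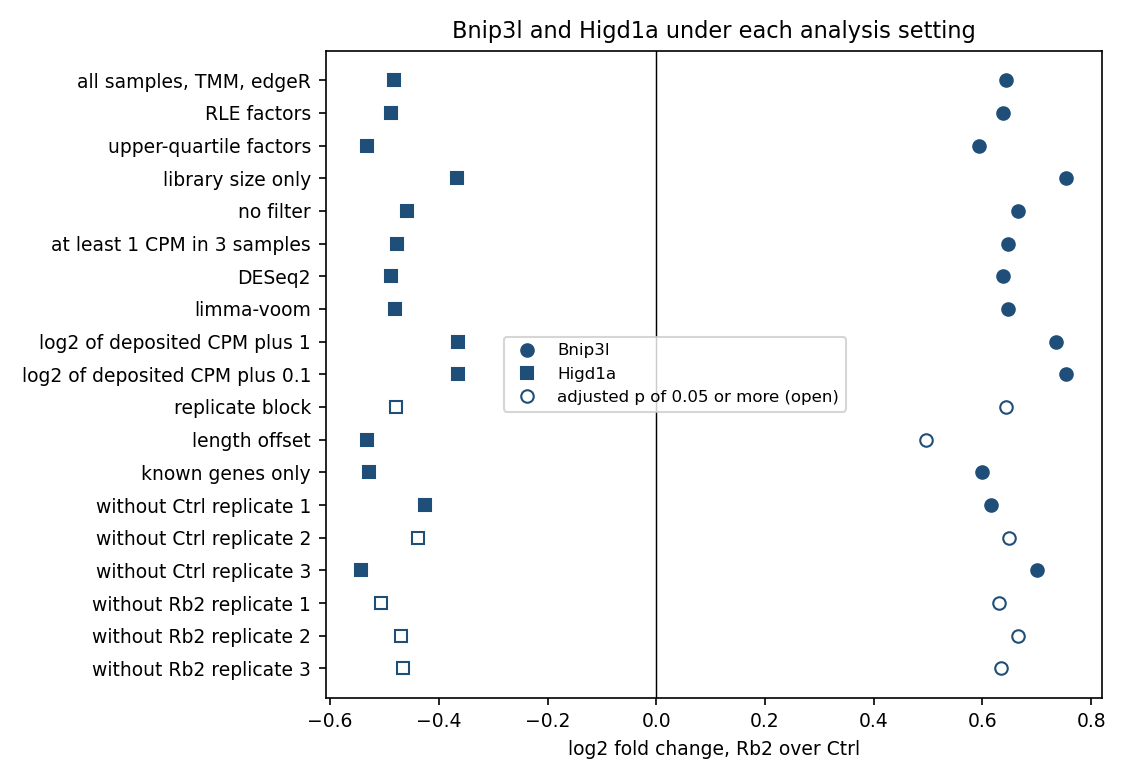
Each row is 1 analysis setting, and the horizontal axis is the log2 fold change of Rb2 over Ctrl for Bnip3l (circles) and Higd1a (squares). Filled symbols have an adjusted p under 0.05 and open ones do not; Bnip3l stays between 0.50 and 0.75 and Higd1a between -0.54 and -0.36 in all 19 settings, while both are open with the replicate block, Bnip3l alone with the length offset, and both in 4 of the 6 fits that leave out a sample.

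Genes of these families may have near-identical copies elsewhere in the genome, and a count is uncertain wherever reads were shared with one. In cultured cells read in bulk, fewer cells with a transcript and less of it per cell cannot be told apart.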

How the data were processed

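RNA of 6 H9c2 samples (3 Ctrl, 3 Rb2) was analysed. Whole-number read counts were deposited in a gene table of 24360 rows and a transcript table of 44501 rows. CPM per gene, deposited by the authors beside the counts, were used for 2 alternatives. HISAT2, DESeq2 and mm10 are named, with no role or order, in the submitters' processing notes, whereas known genes carry rat identifiers. Not given in the sources used here are the counter and the annotation, so no coordinates of the counted genes are printed. Left aside were 18 per-sample columns in each table whose names fit none of these samples.

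Counts were fitted with edgeR 4.0.16 in R 4.3.3 (TMM, filterByExpr, robust quasi-likelihood, group as the only term), with Benjamini-Hochberg adjustment over all features tested. SE and 95% intervals follow from each F statistic. Both fits were tested on simulated counts with known changes. Alternatives used DESeq2 1.42.0, limma 3.58.1, other scalings and filters, known genes only, a length offset (loess, span 0.5), the replicate block and each sample left out. Those for the pathway lists were added after seeing the data.

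The members and lists were chosen with earlier results of these data known. Of 134 listed genes, 120 matched by symbol, and the other 14 are not analysed here. Genes named are all 6 members, up to 3 called genes of each list by p or else the one with the highest CPM, and the 5 genes most correlated with Bnip3l, Higd1a and Bnip3. Fbxl4, Rbx1, Hif1a, Egln1, Actc1, Myh6, Myh7, Tnni3, Actn2, Gata4 and Nkx2-5 lie outside that rule and were chosen after their values were seen. The result of 1 list is not reported here.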

Additional observations from a re-analysis of the deposited data

How the results depend on the processing

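Of the 6 genes, 2 were called, and 12 of 18 alternatives kept that number. With the length offset 1 was called, with the replicate block 0, and leaving out 1 sample gave 0 to 2. Bnip3l had a log2 fold change of 0.50 with the length offset and 0.64 with the replicate block (edgeR adjusted p = 0.0857), and 0.62 to 0.70 with 1 sample left out. Higd1a had -0.48 with the replicate block (edgeR adjusted p = 0.0715) and -0.54 to -0.42 with 1 sample left out. The labels give same-numbered samples a shared number and nothing more. Their deviations from the group means correlated at -0.07, -0.06 and -0.01, and no sample correlated best with its own number. Such correlations cannot show whether these samples were handled together. With the block Skp1, Cul1, Tax1bp1, Usp15 and Hspd1 also missed the threshold. Of all genes, 312 were called, against 543 with library size only, 536 with no filter, 601 and 559 on the log2 scale of deposited CPM with 1 or 0.1 added, 113 among known genes only, 33 with the replicate block, and 3 to 896 with 1 sample left out. Higher genes made up 70.2% of those called (219 higher, 93 lower), and 85.3% with library size only (463 and 80), 59.5% with upper-quartile factors (135 and 92), 85.5% and 85.9% on the deposited CPM, and 53% with the length offset (133 and 118). Lower genes were the majority with the replicate block (12 higher, 21 lower) and without Ctrl replicate 2 (2 and 13), Rb2 replicate 2 (0 and 3) or Rb2 replicate 3 (1 and 10). DESeq2 called 2 member transcripts where edgeR called 0.

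Fkbp8 turned to 0.0393 with library size only, to 0.0566 and 0.0571 on the deposited CPM plus 1 and plus 0.1, to 0.0809 without Ctrl replicate 3, and ranged from -0.19 to 0.0809 with 1 sample left out. Cox8a turned to 0.0317 with the length offset. Ghitm turned to 0.0117 with library size only, to 0.0276 and 0.0278 on the deposited CPM plus 1 and plus 0.1, and ranged from -0.22 to 0.0073 with 1 sample left out. The cause of these changes was not tested. Bnip3l was above 0 and Higd1a below 0 in all 18 alternatives. The log2 ratio of their counts, Rb2 minus Ctrl, was 1.103 on known transcripts and 1.12 with 0.5 added to each count. With 50 to 89 counts per sample, depth limits Fundc1 most.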
